A study of Mus musculus with 2 samples.

Results

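A set of 9 peripheral nerve genes was followed in lung cells of mice that lack Foxf1 in smooth muscle actin-positive cells and of their controls. They are the neurofilament genes Nefl, Nefm and Nefh, the peripherin gene Prph, the synuclein gene Sncg, the peptide gene Calca, the vesicle genes Syt4 and Cadps, and the elongation factor gene Eef1a2. The rule took the rows of the deposited table whose gene symbol equals one of these 9 names. All 9 had a row, of 38972 rows in all, and all 9 are protein-coding. The rule's own wording also names myelin genes, but none of the 9 is one. The genes were chosen by their read counts and FPKM in these same libraries, with the ratio of knockout over control in view, so the ratios below are a description and carry no test.

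One library came from myoFoxf1 KO mice and 1 from Foxf1fl/fl mice, all of the C57Bl/6 strain, and both were labelled as lung fibroblasts. In myoFoxf1 KO mice both Foxf1 alleles are floxed and a tamoxifen-activated Cre (Cre-ERT2) runs from the αSMA promoter, so recombination is limited to cells in which that promoter is active. The Foxf1fl/fl controls carry the floxed alleles without the Cre. The treatment protocol gives bleomycin, which injures and scars the lung, at 1 or 2 U/kg for 2 to 4 weeks. It gives tamoxifen at 40 mg/kg to the transgenic mice, from day 2 to day 4. The labels list this protocol for both samples and assign no single bleomycin dose or duration to either. Bleomycin is named in the title of the control sample but not in that of the knockout sample, though the series text names it for the experiment as a whole, so from these labels genotype and bleomycin cannot be told apart. Age, number of animals per library and the method of cell isolation are not given in the sources used here. The knockout library held 15122824 reads on genes and the control library 16145959. Foxf1 itself had 49 reads (3.61 CPM, reads per 1000000 after TMM scaling) in the knockout library and 158 reads (8.77 CPM) in the control library, a log2 ratio of -1.27 that was called lower by the rule given below, and that was -0.84 and not called once GC content and length were corrected for. Which exons are floxed is not given in the sources used here. With 1 library per genotype no difference has a replicate check, no p-value can be given, and every interval covers counting error only. These are bulk libraries, in which more cells of a type and more RNA per cell cannot be told apart.

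Peripheral nerves reach the lung as axons of sensory neurons, whose cell bodies lie outside the organ, and as axons and small ganglia of the autonomic system. Neurofilaments are heteropolymers of a light, a medium and a heavy chain that fill the axon, and peripherin is an intermediate filament of peripheral neurons that joins them. Nerve signals are passed on by exocytosis of vesicles that hold transmitters or peptides, among them the vasodilator CGRP of sensory fibres. Pulmonary neuroendocrine cells, which are epithelial, also store CGRP, and skeletal muscle as well as neurons uses the eEF1A2 form of the elongation factor.

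For 5 of the 9 genes a RefSeq promoter window was at hand, which runs from 250 bases before the start of the gene to 50 bases after it (GRCm38.p6). Of these, 4 are shown because they hold a motif of interest. In capitals are forkhead letters (GTAAACA or ATAAACA), the cAMP response core (TGACG), the parts of the RE1 silencer element of neuronal genes (CAGCACC and GGACAG), the AP-1 site (TGANTCA) and the TATA box (TATAAA), each searched on both strands.
Cadps, chr14:12823030-12823329, minus strand: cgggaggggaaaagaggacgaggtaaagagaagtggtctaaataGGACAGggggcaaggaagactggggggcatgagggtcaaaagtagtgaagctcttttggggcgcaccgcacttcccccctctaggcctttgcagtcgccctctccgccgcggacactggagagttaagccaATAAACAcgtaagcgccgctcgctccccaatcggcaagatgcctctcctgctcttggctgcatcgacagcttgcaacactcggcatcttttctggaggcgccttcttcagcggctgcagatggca
Sncg, chr14:34374620-34374919, minus strand: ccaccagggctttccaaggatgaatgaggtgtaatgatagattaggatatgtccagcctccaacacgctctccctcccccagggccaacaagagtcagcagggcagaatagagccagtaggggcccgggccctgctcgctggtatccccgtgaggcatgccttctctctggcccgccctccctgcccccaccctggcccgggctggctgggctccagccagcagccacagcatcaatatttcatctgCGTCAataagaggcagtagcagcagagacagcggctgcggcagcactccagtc
Calca, chr7:114636308-114636607, minus strand: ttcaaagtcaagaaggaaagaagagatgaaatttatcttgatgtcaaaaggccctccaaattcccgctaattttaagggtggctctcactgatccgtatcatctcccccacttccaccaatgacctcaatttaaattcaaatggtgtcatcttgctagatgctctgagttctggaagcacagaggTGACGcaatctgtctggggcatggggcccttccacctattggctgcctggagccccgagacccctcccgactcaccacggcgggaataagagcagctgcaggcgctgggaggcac
Prph, chr15:99054924-99055223, plus strand: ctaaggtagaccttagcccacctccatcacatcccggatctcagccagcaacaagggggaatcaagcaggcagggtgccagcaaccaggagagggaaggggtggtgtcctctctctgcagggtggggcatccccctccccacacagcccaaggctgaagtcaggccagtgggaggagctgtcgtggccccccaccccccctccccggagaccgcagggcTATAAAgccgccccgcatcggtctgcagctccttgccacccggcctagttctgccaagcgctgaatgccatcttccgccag
The capitals mark letters, not proven binding sites. Forkhead letters were found in 1 of the 5 windows, that of Cadps, as ATAAACA at position -75 from the start. ATAAACA was held by 4.60% of 32851 promoter windows of the same length and GTAAACA, which none of the 5 held, by 3.65%. The cAMP response core was found in Calca at -65 and in Sncg at -3, against 20.8% of all windows. The right part of RE1 stood in Cadps alone, against 22.2% of all windows, and the left part in none of the 5, against 7.14%. Prph alone had the TATA box, at -31, against 13.6% of all windows. The E-box CANNTG, left in lower case because 72.3% of all windows hold it, was in 4 of the 5. None of the 5 held the AP-1 site, which 7.81% of all windows hold. The window of Eef1a2 held an E-box and no other motif of this set. The GC content of the 5 windows ran from 51.3% in Calca to 64.7% in Prph, with a median of 52.7% over all windows.

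Of the 9 genes, 7 were called higher in the knockout library and none lower. A gene counted as measured if 1 of its libraries reached 1 CPM and its reads summed to 20 or more, and as called when its CPM differed at least 2-fold with an exact 95% interval of the ratio that excludes 1. By that rule 9.37% of the 14455 measured genes were called higher and 14.2% lower. The choice of the genes used this contrast, so nothing is read from their count beside that share. The count was also 7 with total-read scaling (4.05% of all genes measured there), DESeq2 size factors (9.51%), no low-count limit (7.26%), a prior count of 2 (9.17%), a 4-fold threshold (1.2%) and an interval wholly beyond 2-fold (4.94%). It was 5 with log2 of FPKM plus 1 (2.42%) or plus 0.1 (3.88%) and with a limit of 5 CPM (8.96%), and 8 with a 1.5-fold threshold (22.1%). Prph and Calca were not called, and Calca was lower in the knockout library, against the label of a set that is high there. All 9 were measured, 5 of them (Nefl, Sncg, Syt4, Cadps and Eef1a2) through the knockout library alone, since they stood below 1 CPM in the control.

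**Figure D1:**
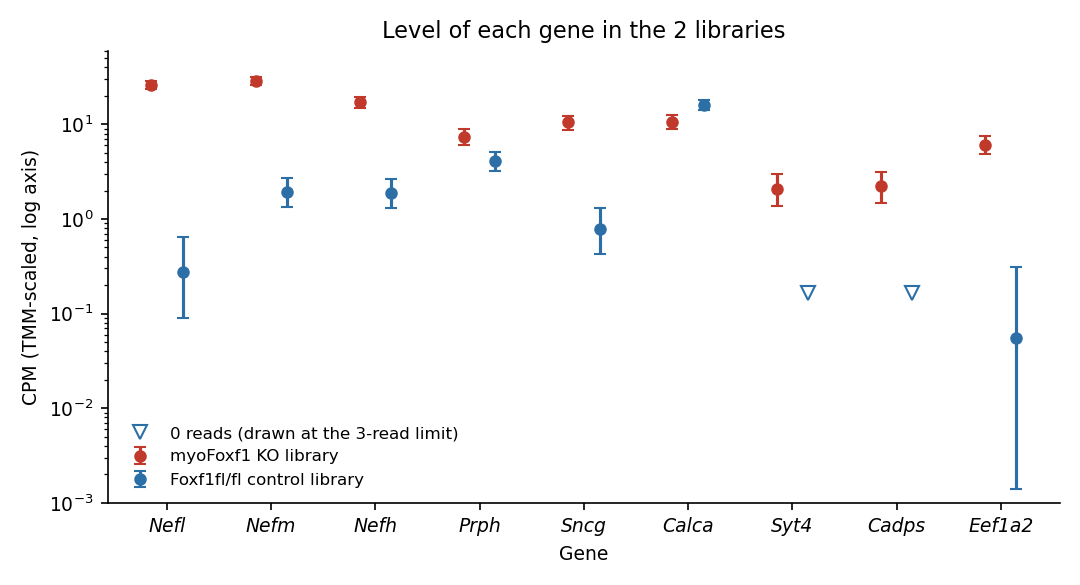
Level of the 9 genes in the myoFoxf1 KO library (red, left of each pair) and the Foxf1fl/fl control library (blue), in CPM on a log axis. Bars are exact 95% Poisson intervals of the read count, 1 library per genotype, and open triangles stand at the limit that 0 reads allow. Calca is the gene whose control point lies above its knockout point.

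The light chain gene Nefl lies on chromosome 14 from 68083863 to 68089095 (GRCm38) on the plus strand. Values in brackets after a CPM, an FPKM or a ratio are its exact 95% interval. It had 353 reads and 26.0 CPM (23.4 to 28.9) in the knockout library, against 5 reads and 0.278 CPM (0.0901 to 0.648) in the control. The ratio was 93.8-fold, with an interval of 39.8 to 291. Nefm, the medium chain gene, lies on chromosome 14 from 68082590 to 68124846 on the minus strand. It had 387 reads and 28.5 CPM (25.8 to 31.5) in the knockout library, against 35 reads and 1.94 CPM (1.35 to 2.70) in the control, a ratio of 14.7-fold (10.4 to 21.4). Nefm had the highest CPM of the 9 in the knockout library, but its interval there overlapped that of Nefl.

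Nefl and Nefm cannot be read as independent values. The annotated span of Nefm holds that of Nefl. Their exons share 1108 bases on opposite strands, out of 3380 exon bases of Nefl and 5782 of Nefm, and the Nextera XT kit does not mark strand. Of the distinct 50-base stretches of the Nefl transcript, 31.8% occur in Nefm on the other strand. The deposited reads of Nefl and Nefm were not whole, at 353.087 and 386.877 in the knockout library and 5.41168 and 34.5883 in the control. Summed, the pair had 740 reads (54.6 CPM) in the knockout library and 40 reads (2.22 CPM) in the control, with a log2 ratio of 4.60 (4.16 to 5.12). Nefl was given 47.7% of the pair's reads in the knockout library and 13.5% in the control, and the part of this division in the gap between their ratios was not tested.

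Nefh, the heavy chain gene, shares no exon with another gene, and none of its 50-base stretches occurs in a transcript of another gene. It lies on chromosome 11 from 4938754 to 4948064 on the minus strand. It had 232 reads and 17.1 CPM (14.98 to 19.5) in the knockout library, against 34 reads and 1.89 CPM (1.31 to 2.64) in the control, a ratio of 9.07-fold (6.31 to 13.4). All 3 neurofilament chains were thus higher in the same library.

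Prph, on chromosome 15 from 99055174 to 99058978, differed far less. It had 100 reads and 7.38 CPM (6.00 to 8.97) in the knockout library, against 73 reads and 4.05 CPM (3.18 to 5.10) in the control, a ratio of 1.82-fold (1.33 to 2.50) that fell short of the 2-fold threshold. In the control library Prph had more reads than Nefl, Nefm or Nefh. The call of Prph depends on the processing. Its longest transcript has 60.8% GC, and after the trends of the ratio with GC content and length were subtracted its log2 ratio was 1.88 and it was called, against 0.86 before. With that correction 8 of the 9 were called higher, beside 5.36% of all measured genes (10.9% were called lower).

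The other intermediate filament genes of the list moved little. Of 7 genes besides the 4 above, 4 were measured and none was called, with a median log2 ratio of 0.16, beside 0.01 over all measured genes (the list median was -0.15 under total-read scaling). Vim, the filament gene of mesenchymal cells, had 3687 CPM in the knockout library and 2870 CPM in the control. Des, the filament gene of muscle, had 14.1 CPM and 11.2 CPM in the same order. Ina, the internexin of neurons, had 5 reads in the knockout library and 2 in the control, and Gfap, the glial filament gene, had 0 in both.

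Sncg encodes gamma-synuclein, a small presynaptic and axonal protein that is abundant in peripheral neurons, and lies on chromosome 14 from 34370274 to 34374789. It had 142 reads and 10.5 CPM (8.82 to 12.3) in the knockout library, against 14 reads and 0.777 CPM (0.425 to 1.30) in the control, a ratio of 13.5-fold (7.77 to 25.3). Sncb, the beta-synuclein gene, had 11 reads in the knockout library and 0 in the control and was below the limit for a measured gene.

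Calca encodes calcitonin and, by alternative splicing, the peptide CGRP, and reads summed per gene cannot tell these products apart. It lies on chromosome 7 from 114631480 to 114636357. It had 143 reads and 10.5 CPM (8.89 to 12.4) in the knockout library, against 288 reads and 16.0 CPM (14.2 to 17.9) in the control. The ratio was 0.660-fold (0.536 to 0.809), lower in the knockout library by less than the 2-fold threshold. The direction for Calca was the same under the 6 alternatives that can move a ratio. With the 1.5-fold threshold it was called lower, as were 23.5% of all measured genes. Calcb, the neighbouring gene of the second CGRP, had 8 reads in the knockout library and 16 in the control. Of the 50-base stretches of Calca transcripts, 0.715% occur in Calcb.

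Among the other CGRP family peptides and receptors, 6 of 10 were measured, none was called higher and 2 were called lower, beside 9.37% and 14.2% of all measured genes, with a median log2 ratio of -0.88. Adm, the gene of adrenomedullin, had 6.42 CPM in the knockout library and 17.9 CPM in the control. Ramp3, a receptor partner, had 26.2 CPM in the knockout library and 58.7 CPM in the control, and it was not called after the GC and length correction, at -0.59. Calca and the measured ligand Adm were thus both lower in the knockout library, in contrast to the filament genes.

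Syt4 and Cadps work in exocytosis. Syt4 is a synaptotagmin of dense-core vesicles, and Cadps encodes CAPS1, which primes those vesicles for fusion. Syt4, on chromosome 18 from 31437808 to 31447415, had 28 reads and 2.07 CPM (1.37 to 2.99) in the knockout library, against 0 reads in the control. Cadps, on chromosome 14 from 12372563 to 12823079, had 30 reads and 2.21 CPM (1.49 to 3.16) in the knockout library, against 0 reads in the control. A count of 0 there allows up to 3 reads, or 0.167 CPM. With 3 reads set in the control, Syt4 was 12.4-fold higher and Cadps 13.3-fold higher. The exact intervals of their ratios begin lower, at 9.43-fold and 10.2-fold. Syt4 shares 566 exon bases with the antisense gene Gm26658, which was listed at 0 in both libraries.

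The rest of the synaptotagmins did not move one way. Of 7 measured besides Syt4, 3 were called higher and 2 lower, beside 9.37% and 14.2% of all measured genes. The median log2 ratio was 0.11 (-0.21 with total reads alone). Syt13 had 57 reads in the knockout library and 3 in the control, and Syt2, the calcium sensor of fast synapses, had 29 reads and 3 reads in the same order. Syt11 was at a log2 ratio of 1.03 and was not called with the correction, at 0.92. Lower were Syt5, with 57 reads in the knockout library and 354 in the control, and Syt10, with 4 and 26 reads.

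Among 26 measured genes of vesicle priming and fusion besides Cadps, 3 were called higher and 3 lower, with a median log2 ratio of -0.04. Of all measured genes 9.37% were called higher and 14.2% lower, so nothing is read from these counts. Snap25, the neuronal membrane partner in vesicle fusion, had 82 reads (6.05 CPM) in the knockout library and 2 reads (0.111 CPM) in the control, a log2 ratio of 5.41 (3.87 to 8.84). Cplx1, a complexin of fast synapses, had 71 reads in the knockout library and 12 in the control. Snap23, which cells outside the nervous system use in place of Snap25, was at 1.01. Rims2 (-1.87, on 4 reads in the knockout library and 21 in the control), Unc13d (-1.51) and Stx1a were lower, and with the correction Unc13d (-0.81), Stx1a (-0.38) and Snap23 (0.43) were not called.

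Eef1a2 encodes the form of elongation factor eEF1A that replaces the common form in neurons and in mature muscle. It lies on chromosome 2 from 181147653 to 181157014. It had 83 reads and 6.12 CPM (4.88 to 7.59) in the knockout library, against 1 read and 0.0555 CPM (0.00141 to 0.309) in the control, a ratio of 110-fold (19.3 to 4407) whose width reflects the single control read. The common form, Eef1a1, had 7227 CPM in the knockout library and 7029 CPM in the control, a log2 ratio of 0.04. No 50-base stretch of the Eef1a2 transcript occurs in a transcript of another gene. Of 6 measured genes of the eEF1 and eEF2 factors besides Eef1a2, none was called, and the list median was -0.30, with Eef2 at -0.32 (0.27 with the GC and length correction).

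**Figure D2:**
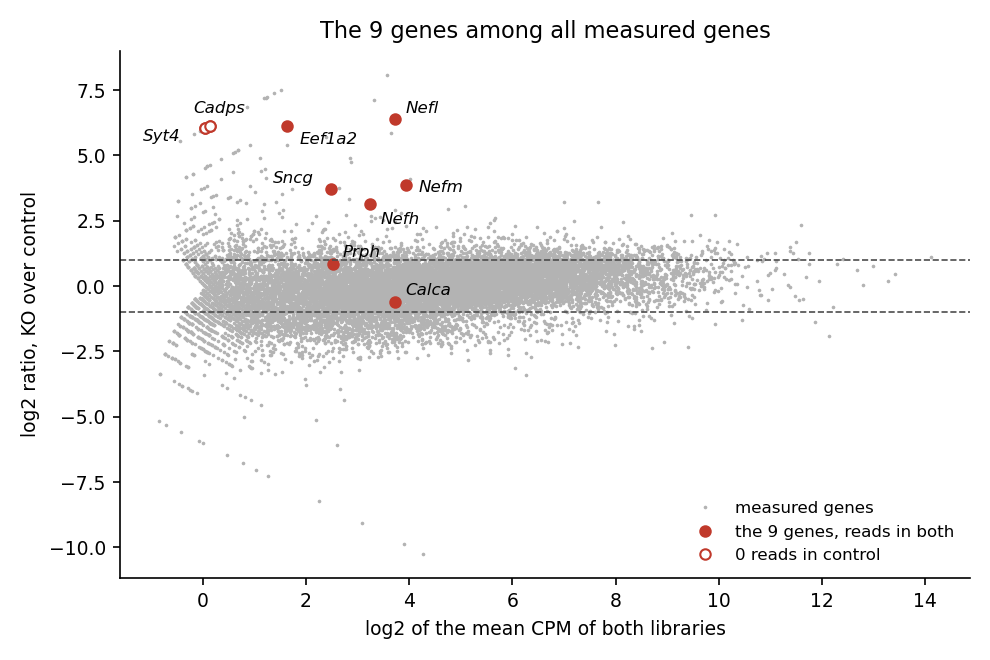
Log2 ratio of knockout over control (y axis) against log2 of the mean CPM of both libraries (x axis) for all 14455 measured genes (grey) and the 9 genes (red), with open circles for those with 0 control reads and dashed lines at the 2-fold threshold. Prph and Calca lie within the bulk of the measured genes, at 0.86 and -0.60. The height of the open circles depends on the prior count of 0.5.

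Ranked by log2 ratio among the 14455 measured genes, Nefl stood 9th, Cadps 10th, Eef1a2 12th, Syt4 13th, Nefm 43rd, Sncg 50th and Nefh 69th, whereas Prph was at rank 1895 and Calca at rank 10862. The ranks of Cadps, Syt4 and Eef1a2 depend on the prior count, because they had 0, 0 and 1 control reads. With a prior count of 2 the log2 ratio of Cadps was 4.21 in place of 6.15. That of Syt4 was 4.11 in place of 6.05, and that of Eef1a2 was 5.10 in place of 6.14. The rank of Nefl depends on the division of reads between Nefl and Nefm, whose sum was at 4.60. In the plot of ratio against level these 7 lie above the 2-fold line.

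Levels can be set side by side between genes only per length, for which the authors' FPKM (reads scaled to transcript length and depth) was used. In the knockout library Sncg was highest at 11.0 FPKM (counting interval 9.28 to 13.0), followed by Nefl at 6.91 (6.20 to 7.67). Next came Nefm at 4.42, Calca at 4.38, Nefh at 3.84, Prph at 3.55 and Eef1a2 at 2.63 FPKM, and the intervals of neighbours in that run overlap. Syt4 at 0.475 FPKM and Cadps at 0.356 FPKM were lowest and overlapped each other. In the control library the order was different. Calca led at 8.24 FPKM (7.32 to 9.26), then Prph at 2.42 (1.90 to 3.05), Sncg at 1.02 (0.556 to 1.71), Nefh at 0.527 and Nefm at 0.370, and of these neighbours only Sncg with Nefh and Nefh with Nefm overlapped. Nefl at 0.0992 and Eef1a2 at 0.0297 FPKM overlapped each other, and Syt4 and Cadps were listed at 0. Calca and Prph, the highest members in the control library, were the ones not called.

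**Figure D3:**
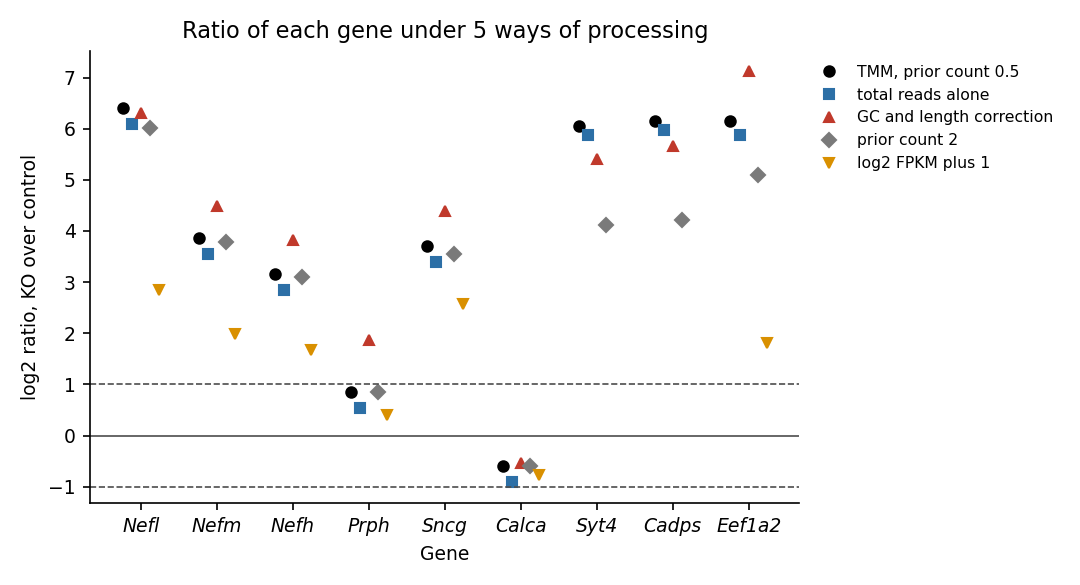
Log2 ratio of knockout over control for each of the 9 genes (y axis) under 5 ways of processing, with dashed lines at the 2-fold threshold. Prph crosses the threshold with the GC and length correction alone, at 1.88, and Calca is below 0 under all 5. Syt4 and Cadps have no FPKM point because they stayed below 1 FPKM.

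Neuronal and glial genes that were not among the 9 were set beside them. Of 25 measured pan-neuronal genes, 15 were called higher in the knockout library and 1 lower, beside 9.37% and 14.2% of all measured genes, and the median log2 ratio was 1.15. Of those 15, 9 stood below 1 CPM in the control and were measured through the knockout library alone, so they had to differ, and the count is a description. Scg3, a granin of dense-core vesicles, had 57 reads in the knockout library and 2 in the control. Stmn3, a microtubule regulator of neurons, had 34 reads and 1 read in the same order, and the RNA-binding protein gene Elavl2 had 21 reads and 1 read. The most abundant gene of the list, the axonal adhesion gene L1cam, had 39.5 CPM in the knockout library and 22.9 CPM in the control and was not called. Mapt, the gene of tau, was the one called lower, with 33 reads in the knockout library and 109 in the control.

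Sensory neuron genes were scarce in both libraries. Of 26, 11 were measured, 4 were called higher and none lower, beside 9.37% and 14.2% of all measured genes. The median log2 ratio was 0.62, and all 4 called genes were measured through the knockout library alone. The count and the median held under some settings and not under others. With DESeq2 size factors (median 0.62) or a prior count of 2 (median 0.60), 4 were called higher and none lower. With the GC and length correction 5 were called higher and none lower (median 0.41). With total-read scaling 3 were called higher and 2 lower (median 0.30), and with log2 of FPKM plus 0.1 none was called higher and 2 were lower (median -0.53). With log2 of FPKM plus 1 (median -0.30) or a limit of 5 CPM (median -0.26) none was called either way. The voltage-gated sodium channel genes of pain-sensing neurons were among them. Scn11a had 26 reads in the knockout library and 0 in the control. With 3 reads set in the control its log2 ratio was 3.53, and its exact interval begins lower, at 3.12. Scn9a had 26 reads in the knockout library and 2 in the control, and Scn10a had 32 and 10 reads. In all, 8 genes of the list had reads in the knockout library and 0 in the control, and none had the reverse. Only Scn11a and the sensory transcription factor Pou4f1 (9 reads) were above 3 reads there. The others, such as Trpa1 (2 reads) and Npy2r (3 reads), did not exceed the 3 reads that a count of 0 allows. The share of such genes over the whole table was not counted, so nothing is read from the count of 8. Runx1, the most abundant of the list, is also a gene of blood cells and stood at 101 CPM in the knockout library and 98.7 CPM in the control.

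Few autonomic neuron genes were measured. Of 19 with a row 5 were measured, 1 was called higher and 2 lower, beside 9.37% and 14.2% of all measured genes. The median log2 ratio was -0.70. Chat and Slc5a7, which cholinergic neurons need to make acetylcholine, had 0 reads in both libraries. Unlike in the sensory list, 1 gene had reads in the knockout library alone and 6 had reads in the control library alone. Npy, a neuropeptide that is also found outside neurons, had 36 reads in the knockout library and 9 in the control. The noradrenaline transporter Slc6a2 had 38 and 198 reads in the same order, Gata2, which endothelial and mast cells express too, had 31 and 130 reads and was not called with the GC and length correction (-0.97), and Gata3, the most abundant, had 9.59 CPM and 15.5 CPM.

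Among the myelin and glial genes that the wording of the rule names, the result was mixed. Of 18 measured Schwann cell and satellite glia genes 4 were called higher and 3 lower, beside 9.37% and 14.2% of all measured genes. The median log2 ratio was -0.26, and all 4 called higher were measured through the knockout library alone. Fabp7, a fatty acid binding protein of glia, had 28 reads in the knockout library and 5 in the control, and S100b had 36 and 13. Mbp, a myelin gene that other cells transcribe as well, had 70.6 CPM in the knockout library and 96.4 CPM in the control, and Pmp22, the most abundant of the list, had 149 CPM and 83.8 CPM, and neither was called. The glial regulator Sox10 had 2 reads in the knockout library and 0 in the control. Lower were Sox2 (-1.69), which airway epithelium also expresses, Cadm4 (-1.22, or -0.29 corrected) and Mpzl1 (-1.10, or -0.92 corrected).

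Pulmonary neuroendocrine cells hold several of the same transcripts. Of 9 measured genes of their list 5 were called higher and none lower, beside 9.37% and 14.2% of all measured genes. The median log2 ratio was 1.01, and 4 of those 5 were measured through the knockout library alone. Without a limit on low counts 5 were called higher and 2 lower, with a median of 0.21. At 5 CPM 1 was called higher, and with log2 of FPKM plus 1 (median -0.20) or plus 0.1 (median -0.36) none was. Chga, a granin, had 23 reads in the knockout library and 1 in the control, and Pcsk2, a prohormone convertase, had 18 and 2 reads. Scg2 and Uchl1, also called, are neuronal too and stand in the pan-neuronal list as well. With the GC and length correction 4 of the 9 were called. The rest of the list was uneven. Syp, a synaptic vesicle protein gene, had 115 reads in the knockout library and 89 in the control, Bex2 66 and 129, Cplx2 58 and 121, Pcsk1 21 and 23, Chgb 10 and 12, and Resp18 10 and 14. Low in the knockout library were Grp at 0 in both libraries, Insm1 at 2 reads (3 in the control) and Ddc at 0 reads (7 in the control).

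**Figure D4:**
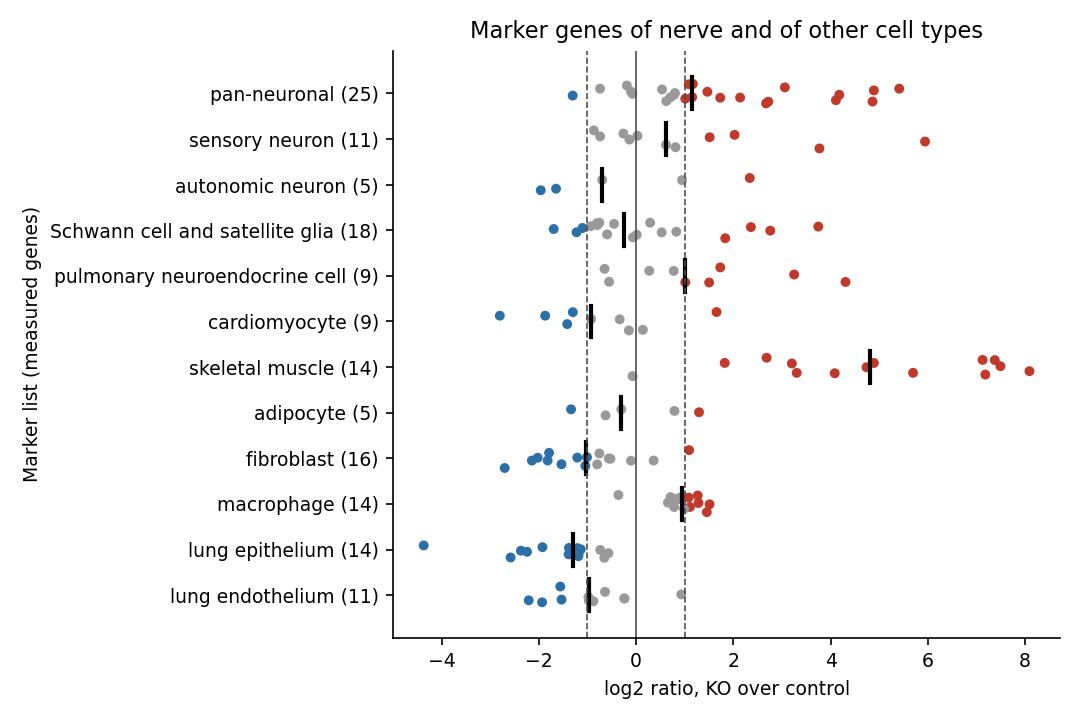
Log2 ratio of knockout over control for every measured gene of 12 marker lists, none of which holds the 9 genes, with the number of measured genes in brackets. Red points were called higher, blue lower and grey not called, black bars are list medians, and dashed lines are the 2-fold threshold. Skeletal muscle has the highest median, at 4.82, and the pan-neuronal list follows at 1.15.

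Skeletal muscle genes were also higher in the knockout library. Of 14 measured, 13 were called higher in the knockout library and none lower, beside 9.37% and 14.2% of all measured genes. The median log2 ratio was 4.82, or 4.76 with genes at 0 control reads set to 3 reads. Of the 13, 10 stood below 1 CPM in the control and were measured through the knockout library alone, so their count is a description too. Their summed level was 173 CPM in the knockout library and 19.7 CPM in the control. Myh4, a fast myosin, had 322 reads in the knockout library and 1 in the control, Myh2 had 62 and 0, Myl1 71 and 0, and Acta1, the most abundant, 416 and 32. Pvalb, a calcium buffer of fast muscle and of some sensory neurons, had 77 reads in the knockout library and 0 in the control. The part of muscle in the results for Eef1a2 and the other 8 genes was not tested.

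Cells other than nerve and muscle also differed between the libraries. The counts below stand beside 9.37% of all measured genes called higher and 14.2% called lower. The summed pan-neuronal level was 188 CPM in the knockout library and 107 CPM in the control. Macrophage markers summed to 35532 CPM and 16489 CPM in the same order, with 6 of 14 measured called higher. That count was 2 with total-read scaling (4.05% of all genes measured there) and with log2 of FPKM plus 1 (2.42%) or plus 0.1 (3.88%). It was 9 with the GC and length correction (5.36%), 13 at the 1.5-fold threshold (22.1%) and 0 at 4-fold (1.2%). Fibroblast markers, by which the cells are labelled, were present in both at 4498 CPM and 4616 CPM, with Vim most of that sum. Without Vim the other 15 summed to 811 CPM in the knockout library and 1746 CPM in the control, and 14 of them were lower in the knockout library. Of all 16 fibroblast markers 9 were called lower in the knockout library and 1 (Fap) higher. Inmt was furthest down, with 298 reads in the knockout library and 2578 in the control. In lung epithelium 11 of 14 and in lung endothelium 4 of 11 were called lower and none higher, with sums of 5854 and 461 CPM in the knockout library, against 16872 and 453 CPM in the control. Without Cav1, the most abundant, the endothelial genes summed to 165 CPM in the knockout library and 298 CPM in the control, and all 10 were lower in the knockout library. Cardiomyocyte markers summed to 38.4 CPM in the knockout library and 48.1 CPM in the control, with 1 of 9 called higher and 4 lower. Adipocyte markers, relevant because fat also transcribes Sncg, summed to 310 CPM and 344 CPM, with 1 of 5 called each way. Most of both sums came from Pnpla2, Fabp4 and Cidec (136, 87.0 and 62.1 CPM in the knockout library). Adipoq had 2 reads in the knockout library and 0 in the control, Plin1 5 in each and Lep 0 in each. Ucp1 had 191 and 103 reads. Rag1, a thymocyte gene picked after its value was seen, had 334 reads in the knockout library and 7 in the control. The part of these differences in the results for the 9 genes was not tested.

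By distance in log2 CPM over the 2 libraries from the median of the 9 genes, the nearest genes included the neuronal kinesin gene Kif5c, the muscle genes Mylpf and Atp2a1, and the mast cell protease gene Cpa3. Kif5c had 108 reads in the knockout library and 22 in the control, Mylpf 192 and 9, Atp2a1 191 and 8, and Cpa3 177 and 23. With only 2 libraries many genes share a pattern, so this likeness says no more than that the values are close.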

How the data were processed

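RNA from lung cells was sequenced from 1 myoFoxf1 KO and 1 Foxf1fl/fl library. Per the labels' protocols the kit was Nextera XT. The authors deposited 1 table that gives, for each gene and library, an estimated count and an FPKM. The submitters' processing notes name TopHat, Cufflinks, GRCm38 and mm10, and versions, roles and filters are not given in the sources used here. Estimated counts as deposited held fractions of a read in 73.3% (knockout) and 76.1% (control) of genes above 0, and were rounded to whole numbers.

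Libraries were scaled by TMM in edgeR 4.0.16 (R 4.3.3), and 0.5 was the prior count of the log2 ratios (knockout over control). Intervals are exact at 95%, Poisson for counts and Clopper-Pearson for ratios (scipy 1.17.1), and cover counting error only, since PCR copies cannot be told from molecules here. No test was possible with 1 library per group. Ratios were also computed after lowess trends (span 0.3, statsmodels 0.14.6) on GC content and length of the longest GENCODE M21 transcript were subtracted, which 98.9% of measured genes allowed. Of the table's IDs 37570 were found in GENCODE M21 (GRCm38), with the same span for 7 of the 9 genes. Promoters are from RefSeq.

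Members and lists were chosen with earlier results of these data known. Named genes were the 9, Foxf1, up to 4 called genes of each list by size of ratio (or the 2 most expressed), the most abundant gene of each cell type list, and the 5 nearest to the members' median. Some genes of the lists are not reported here. For other cell types (fibroblast, macrophage, epithelium, endothelium, heart, fat) mostly counts and sums are given. Others, named to account for small counts or marker levels, were picked after their values were seen. The calculations were tested on simulated data.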

Additional observations from a re-analysis of the deposited data

How the results depend on the processing

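Of the 11 alternatives, 6 can move a ratio, and none of the 9 genes changed sign under those. Of 50 ratios under the 6 settings that can move a ratio (scalings, FPKM, prior count, GC and length), 37 stayed within the original interval and 13 lay outside it. The count called higher, 7 of 9, ran from 5 to 8, and Prph was called in 2 alternatives, the GC and length correction and the 1.5-fold threshold. Calca was called lower at 1.5-fold alone. Syt4 and Cadps gave no value with FPKM or at 5 CPM, being below those limits. Summing Nefl and Nefm, an alternative chosen after seeing the data, gave 4.60.

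Of 25 measured pan-neuronal genes, 15 were called higher, beside 9.37% of all measured genes. The count was 3 of 13 with log2 of FPKM plus 1 (2.42% of all) and 5 of 13 with FPKM plus 0.1 (3.88%). At 5 CPM or more it was 6 of 12 (8.96%), and at the 4-fold threshold 9 of 25 (1.2%). Of 18 measured Schwann cell and satellite glia genes, 4 were called higher. The count was 1 of 16 with log2 of FPKM plus 1 and 1 of 13 at 5 CPM or more, beside the same shares of all genes. The 5 CPM limit tests fewer genes. The FPKM settings change scale, pseudocount and limit at once, leaving 13 of 25 pan-neuronal genes, and the cause of their lower counts was not tested. Scaling by total reads alone (the median of all measured genes was then -0.32) called 587 genes higher and 3212 lower over the whole table, against 1355 and 2053 with TMM, and log2 of FPKM plus 1 called 313 and 1593. No paired analysis was possible because each group has 1 library. The single-digit control counts of Nefl, Syt4, Cadps and Eef1a2 limit how closely their ratios can be stated.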

Other observations

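Growth factors that keep peripheral neurons alive, and their receptors, were a further list. Of 12 measured, 1 was called higher in the knockout library and 3 lower, beside 9.37% and 14.2% of all measured genes, with a median log2 ratio of -0.17. Among those called lower were the secreted factors Ntf5, with 5 reads in the knockout library and 34 in the control, and Artn, with 9 and 53 reads. Artemin, the product of Artn, is a ligand of receptors on sensory neurons. With the GC and length correction 2 genes of the list were called higher and 2 lower.

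Genes that axon injury induces in neurons had 8 measured members, 2 called higher and 2 lower, beside 9.37% and 14.2% of all measured genes. Their median log2 ratio was -0.41. Gap43, a growth cone gene, had 22 reads in the knockout library and 3 in the control, and Npy had 36 and 9. Sprr1a, which keratinocytes and airway cells also express, had 78 reads in the knockout library and 308 in the control. Jun, an immediate early gene of most cells, had 231 CPM in the knockout library and 509 CPM in the control. Neither Sprr1a (-0.96) nor Jun (-0.68) was called after the correction.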
